A study of Mus musculus with 12 samples.

Results

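The genes described here make, sense, move and store cholesterol. They are the 29 genes of a list of cholesterol synthesis, uptake and trafficking, found by gene symbol among the 34986 genes of the deposited table. All 29 passed the filter on low values that left 19006 genes for testing. By role, 4 are regulators, 8 act in the mevalonate stage, 11 in the squalene and sterol stage and 6 in transport, uptake control and storage. Their RNA was measured by sequencing in whole livers of 12 female C57BL/6 mice aged 16 weeks. The 6 mice of 1 group received VPA, valproic acid, an anticonvulsant known for liver toxicity. The other 6 (VPA_OCA) received it together with OCA, obeticholic acid, a semisynthetic bile acid and agonist of the nuclear bile acid sensor FXR. Both groups therefore received VPA, mice without VPA were not analysed here, and dose and duration are not given in the labels used here. Libraries are named by group and replicate number, as VPA 4. The labels do not say what the numbers mark or whether the mice were kept or killed together.

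Cholesterol is built from acetyl-CoA. The mevalonate stage makes isoprenoid units, squalene closes to lanosterol, and a series of endoplasmic reticulum enzymes trims lanosterol to cholesterol. When sterol in the endoplasmic reticulum is low, SCAP carries the transcription factor SREBP2 to the Golgi, where it is cut and freed to enter the nucleus and switch on the genes of this route. When sterol is plentiful, INSIG proteins hold SCAP back. In liver, cholesterol also feeds bile acid synthesis, which FXR restrains.

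None of the 29 genes passed the test between VPA_OCA and VPA, by limma on log2(normalized count + 1) with Benjamini-Hochberg adjustment and a threshold of 0.05. Of all 19006 genes tested 0.721% passed, 0.442% higher and 0.279% lower in VPA_OCA. With a replicate block 0 of 29 passed as well, against 1.1% of all genes, and 2 of the 29 had an unadjusted p under 0.05 by limma, against 12.5%. In 0 of the 29 did the 2 groups of livers separate without overlap, against 0.916% of all genes higher and 0.526% lower. At an unadjusted p under 0.05 by limma, 1 of the 29 remained, Soat2, against 9.55% of all genes. The authors' deposited table gave 1 of the 29 an adjusted p under 0.05, also Soat2, against 5.57% of the 12517 genes it tested. Fold changes are VPA_OCA over VPA on the log2(normalized count + 1) scale, and their median was 0.05 over the 29 genes and -0.0005 over all genes tested. For 26 of the 29 the 95% interval lay within a 2-fold difference either way, against 70.6% of all genes, and the exceptions were Hmgcs1, Mvd and Lss. Most enzymes of both synthesis stages were instead high together in the same livers and low together in others.

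The libraries held 20236900 to 22087711 normalized counts, from an estimated 17879222 to 37766890 reads. Hepatocyte markers were abundant, with 6 of 6 tested and a summed level of 1785910 to 2905030 normalized counts. In whole liver RNA, fewer cells of a type and less RNA per cell cannot be told apart. The share of mitochondrial transcripts was 9.09% to 11.7% in the libraries numbered 1 to 3 and 5.84% to 7.51% in those numbered 4 to 6, so each comparison is also given within these sets (n = 3 per group). A pair of known FXR-responsive genes that passed by limma over all libraries kept their direction in both sets. Slc51b, a bile acid exporter subunit, had a log2 fold change of 2.76 in numbers 1 to 3 and of 3.65 in numbers 4 to 6, and Cyp8b1, the sterol 12-alpha-hydroxylase, of -3.02 and -1.64. Nr0b2, which encodes the FXR target SHP, did not pass (limma adjusted p = 0.57), with log2 fold changes of 0.23 and 1.31.

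**Figure D1:**
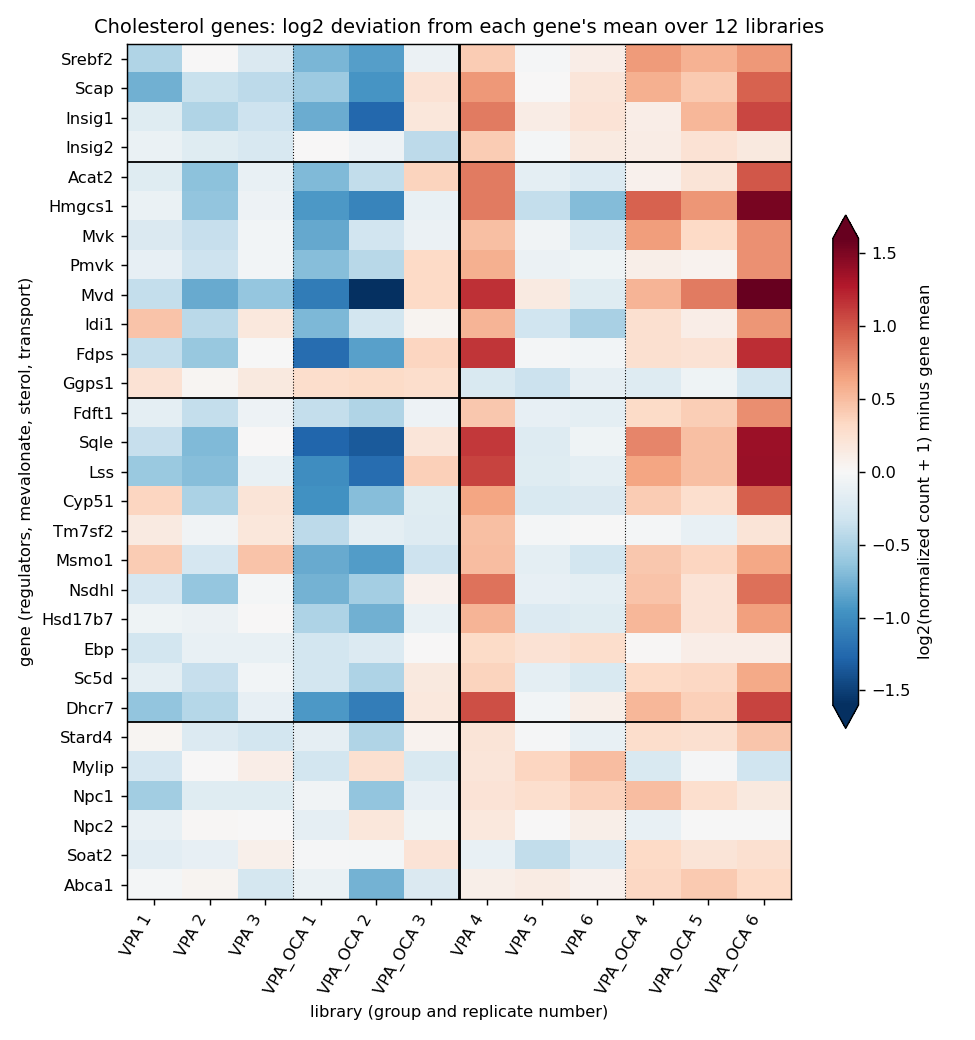
Each cell is the log2(normalized count + 1) of 1 gene in 1 library minus that gene's mean over the 12 libraries, with genes in rows by role and libraries in columns, numbers 1 to 3 left of the thick line and 4 to 6 right of it. Most enzyme rows are red in VPA 4 and VPA_OCA 6 and blue in VPA_OCA 1 and 2, while Ggps1, Mylip and Npc2 do not share that pattern.

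Before the values, the regulatory sequence is shown for 6 genes. RefSeq promoter windows (GRCm38.p6, 250 bases before the start to 50 after) were found for 23 of the 29 genes, 29 windows in all. They were searched on both strands for TCACNCCAC, a form of the sterol regulatory element, for CCAAT, bound by NF-Y, and for GGGCGG, bound by Sp1, factors known to act beside SREBP proteins. The first occurred in 1 of 29 windows (3.45%), that of Hmgcs1, against 1.24% of 32851 windows of the same length over all genes. CCAAT occurred in 20 (69%) against 37.4%, and GGGCGG in 24 (82.8%) against 35.7%. The windows over all genes were not limited to genes that passed the filter, as all 29 did, so they are not a like background. A match is a description of letters, and no match says only that these letters are not in this window.

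The 3 genes below, whose levels followed one another closely across libraries, are Hmgcs1 (chr13:119690101-119690350, plus strand), Sc5d (chr9:42264301-42264550, minus strand) and Pmvk (chr3:89454291-89454540, plus strand). The 250 bases before each start are given 5′ to 3′ on the gene's strand, with matches of any of the 3 motifs on either strand in capitals. No other gene of the deposited table lies in these windows. Pmvk also has a second window, chr3:89459321-89459570, not shown, which held none of the 3 motifs.
Hmgcs1: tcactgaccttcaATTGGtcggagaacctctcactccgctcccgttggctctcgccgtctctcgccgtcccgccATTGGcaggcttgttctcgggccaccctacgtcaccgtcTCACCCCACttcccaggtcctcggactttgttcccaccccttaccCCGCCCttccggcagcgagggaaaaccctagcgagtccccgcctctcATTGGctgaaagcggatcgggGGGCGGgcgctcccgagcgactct
Sc5d: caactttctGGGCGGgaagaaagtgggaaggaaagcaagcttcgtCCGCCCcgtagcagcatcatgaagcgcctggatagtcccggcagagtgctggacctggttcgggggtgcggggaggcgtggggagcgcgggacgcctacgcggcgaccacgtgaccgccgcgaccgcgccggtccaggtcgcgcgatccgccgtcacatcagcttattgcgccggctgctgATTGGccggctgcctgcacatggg
Pmvk: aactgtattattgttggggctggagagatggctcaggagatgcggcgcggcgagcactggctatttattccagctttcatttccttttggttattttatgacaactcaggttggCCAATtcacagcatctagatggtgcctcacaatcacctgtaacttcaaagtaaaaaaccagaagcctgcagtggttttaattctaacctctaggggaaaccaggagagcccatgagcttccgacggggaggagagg

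For contrast, the same stretch is given for 3 genes that followed Hmgcs1 less or not at all, Mylip (chr13:45389492-45389741, plus strand), Ebp (chrX:8193513-8193762, minus strand) and Abca1 (chr4:53159896-53160145, minus strand).
Mylip: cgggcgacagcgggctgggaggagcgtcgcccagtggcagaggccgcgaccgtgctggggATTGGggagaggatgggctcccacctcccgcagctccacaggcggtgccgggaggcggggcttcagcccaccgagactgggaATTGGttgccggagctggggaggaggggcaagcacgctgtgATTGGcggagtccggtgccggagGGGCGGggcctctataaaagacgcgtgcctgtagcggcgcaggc
Ebp: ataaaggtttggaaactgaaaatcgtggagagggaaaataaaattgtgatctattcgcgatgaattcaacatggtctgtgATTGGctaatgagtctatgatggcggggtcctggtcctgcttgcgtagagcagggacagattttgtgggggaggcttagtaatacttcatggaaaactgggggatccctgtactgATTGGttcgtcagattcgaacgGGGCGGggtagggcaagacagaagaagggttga
Abca1: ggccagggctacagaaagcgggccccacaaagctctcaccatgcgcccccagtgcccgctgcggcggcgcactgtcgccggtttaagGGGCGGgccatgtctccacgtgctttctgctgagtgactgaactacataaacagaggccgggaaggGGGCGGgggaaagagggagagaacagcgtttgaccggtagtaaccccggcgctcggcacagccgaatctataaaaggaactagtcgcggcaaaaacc
The window of Hmgcs1 held the sterol element at -137 from the start and CCAAT at -237, -176 and -45. Mylip held CCAAT at -190, -108 and -67 and Ebp at -170 and -55, and Abca1 held GGGCGG at -163 and -97 with no CCAAT. Matches to the NF-Y motif were thus present both in windows of genes that followed Hmgcs1 and in windows of genes that did not.

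Of the 4 regulators 0 passed by limma and 0 had an unadjusted p under 0.05, with adjusted p-values of 0.897 to 0.997. Srebf2, which encodes SREBP2 (ENSMUSG00000022463, chromosome 15, 82147266 to 82205376, GRCm38, plus strand), ran from 711 to 1324 normalized counts in VPA (median 993) and from 538.8 to 1617 in VPA_OCA (median 1197). The VPA_OCA values enclosed the whole VPA range. The means were 990 ± 209 and 1123 ± 497 (SD, n = 6), with a log2 fold change of 0.07 ± 0.27 (SE).

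Scap, the SREBP escort (chromosome 9, 110333288 to 110384950), ran from 1531 to 4252 in VPA (median 2343) and from 1360 to 5049 in VPA_OCA (median 3288). The groups overlapped over nearly all of their range, and the log2 fold change was 0.21 ± 0.30. Insig1 measured 7884 ± 2849 and 8325 ± 4510, and its highest library, VPA_OCA 6, was 5.02 times its lowest, VPA_OCA 2. Insig2, the second INSIG retention factor, measured 1998 ± 360 and 2002 ± 305.5, with a highest library 1.78 times its lowest.

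In the mevalonate stage, 0 of 8 genes passed by limma and 0 had an unadjusted p under 0.05, with a median log2 fold change of 0.13. Hmgcs1, the cytosolic HMG-CoA synthase at the start of the route (ENSMUSG00000093930, chromosome 13, 119690379 to 119708260), ran from 3237 to 9288 normalized counts in VPA (median 4458) and from 2520 to 14960 in VPA_OCA (median 6674). VPA_OCA held both the lowest and the highest livers. The means were 4964 ± 2239 and 7280 ± 4844, with a log2 fold change of 0.35 ± 0.40 and a limma adjusted p of 0.86.

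Mvd, the mevalonate diphosphate decarboxylase, varied most of all 29 genes: its highest library was 10.3 times its lowest. It ran from 403 to 1590 in VPA (median 581) and from 229 to 2359 in VPA_OCA (median 957), with a log2 fold change of 0.23 ± 0.48. The VPA_OCA libraries again extended beyond VPA at both ends. Another gene, Gm20388, covers Mvd on the other strand and averaged 545 normalized counts against 873 for Mvd; the use of strand in counting is not given in the sources used here, so their reads may not be separable.

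Ggps1, which makes geranylgeranyl diphosphate for the non-sterol branch, ran from 130 to 194 in VPA (median 158) and from 134 to 204 in VPA_OCA (median 178). Its groups overlapped, and its 6 libraries numbered 1 to 3 all lay above the 6 numbered 4 to 6. It overlaps Arid4b on the other strand, which averaged 305 normalized counts against 167 for Ggps1. The acetoacetyl-CoA thiolase Acat2 measured 2551 ± 1019 and 2929 ± 1243. The kinases Mvk and Pmvk measured 406 ± 95.3 and 477 ± 184, and 1961 ± 470 and 2064 ± 725. The isomerase Idi1 measured 4302 ± 1376 and 4411 ± 1462, and Fdps, the farnesyl diphosphate synthase, 6426 ± 3281 and 6742 ± 3859. For each of these 5 genes the difference in means was smaller than either SD.

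In the squalene and sterol stage, 0 of 11 genes passed by limma and 0 had an unadjusted p under 0.05, with a median log2 fold change of 0.05. Sqle, the squalene epoxidase, ran from 978 to 3507 in VPA (median 1458) and from 629 to 4142 in VPA_OCA (median 2028), 6.58-fold from lowest to highest. Lss, the lanosterol synthase, ran from 999 to 3377 (median 1419) and from 683 to 4164 (median 2156), 6.09-fold. Both had VPA 4 far above the other VPA livers and VPA_OCA 1 and 2 as the lowest of all 12. Their log2 fold changes were 0.07 ± 0.43 and 0.22 ± 0.40.

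Tm7sf2, a sterol delta-14 reductase, ran from 3288 to 4805 in VPA (median 3610) and from 2559 to 3976 in VPA_OCA (median 3124). Most VPA_OCA livers lay below the VPA livers, but the ranges overlapped. The log2 fold change was -0.24 ± 0.12, with a limma adjusted p of 0.54. It overlaps Vps51, which averaged 381 normalized counts against 3475 for Tm7sf2.

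Sc5d, the lathosterol oxidase (chromosome 9), ran from 8032 to 13280 in VPA (median 9338) and from 7411 to 15860 in VPA_OCA (median 12285). VPA_OCA held both extremes, and the log2 fold change was 0.21 ± 0.18. Cyp51, the lanosterol 14-alpha-demethylase, ran from 2153 to 4740 (median 3070) and from 1571 to 5955 (median 3188), with a log2 fold change of -0.07 ± 0.28. Msmo1, a C4-methylsterol oxidase that acts after it, ran from 2636 to 4534 (median 3577) and from 1736 to 4964 (median 3320), with -0.21 ± 0.26. The groups of both overlapped widely. Cyp51 shares bases with Akap9 on the other strand, which averaged 583 normalized counts against 3284 for Cyp51.

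Fdft1, the squalene synthase, measured 3595 ± 750 and 4145 ± 1368; it overlaps the abundant Ctsb on the other strand, which averaged 13485 normalized counts. Nsdhl and Hsd17b7, which take part in the removal of the C4 methyl groups, measured 1531 ± 622 and 1684 ± 693, and 1225 ± 269 and 1288 ± 478. The sterol isomerase Ebp measured 4961 ± 869 and 4614 ± 524, and Dhcr7, a final-step reductase, 1929 ± 923 and 2121 ± 1127. Ebp spread least of the 11, with a highest library 1.52 times its lowest.

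**Figure D2:**
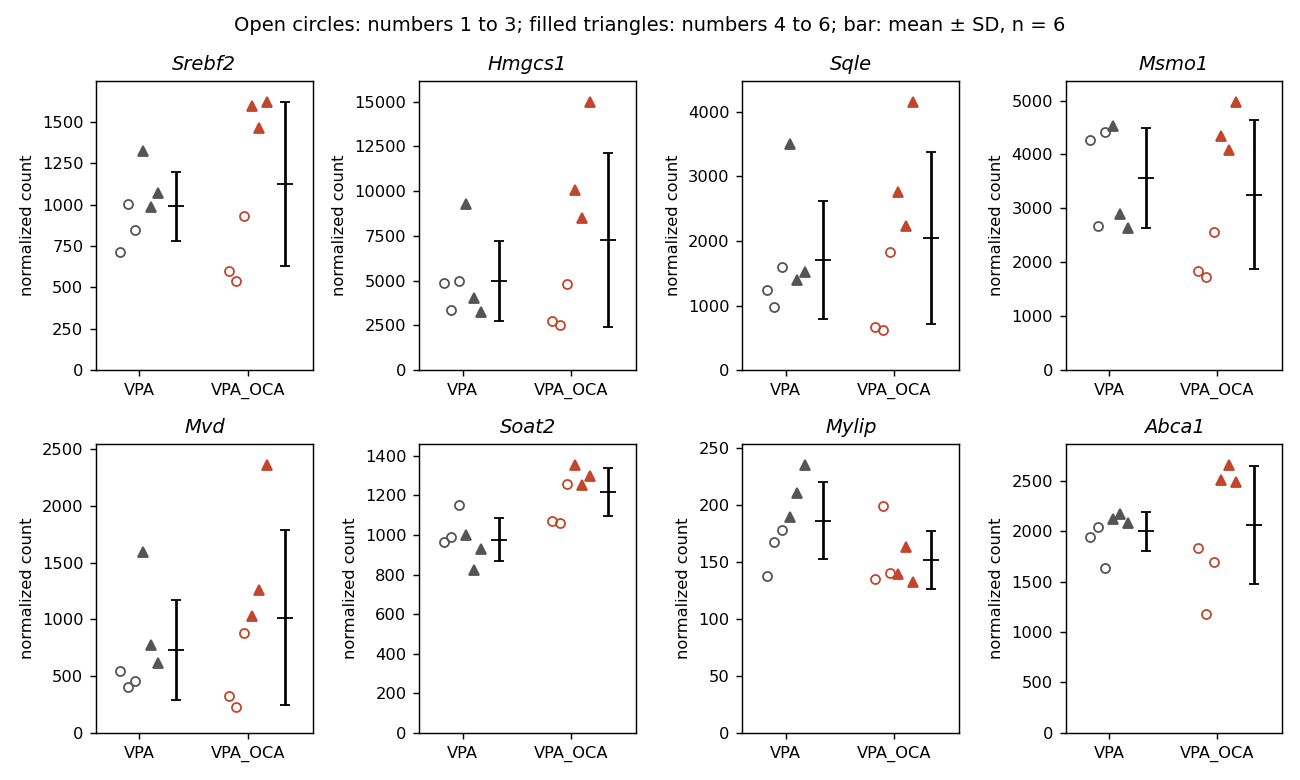
Normalized counts of 8 genes are plotted per library, with VPA in grey and VPA_OCA in red, open circles for numbers 1 to 3, filled triangles for 4 to 6, and a bar for the mean ± SD of 6 libraries. In Hmgcs1, Sqle and Mvd the highest VPA point is VPA 4 and the highest VPA_OCA point VPA_OCA 6, while the groups of Soat2 overlap only between 1063 and 1152.

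Among transport and storage genes, 0 of 6 passed by limma, and 1 had an unadjusted p under 0.05. That gene, Soat2 (ENSMUSG00000023045, chromosome 15, 102150526 to 102163474, plus strand), encodes the enzyme that esterifies cholesterol for storage and for lipoproteins in liver. It ran from 824 to 1152 normalized counts in VPA (median 978) and from 1063 to 1353 in VPA_OCA (median 1256). The groups overlapped by VPA 3, the highest VPA liver, which lay above VPA_OCA 1 and 2. The means were 977 ± 107 and 1217 ± 121, 1.25-fold higher in VPA_OCA, with a log2 fold change of 0.32 ± 0.10 and a limma adjusted p of 0.195. In the authors' deposited table its adjusted p was 0.0428.

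Mylip, the ubiquitin ligase that directs lipoprotein receptors to degradation, ran from 138 to 235 in VPA (median 184) and from 133 to 199 in VPA_OCA (median 140). VPA_OCA 2 lay within the upper VPA range. The log2 fold change was -0.29 ± 0.14, with a limma adjusted p of 0.54. Abca1, the cholesterol efflux pump, measured 1998 ± 194 and 2059 ± 582. The sterol carrier Stard4 measured 2825 ± 358 and 3150 ± 690. Npc1 and Npc2, which release cholesterol from lysosomes, measured 3266 ± 767 and 3351 ± 843, and 2412 ± 161 and 2317 ± 189. Npc1 shares bases with 3110002H16Rik on the other strand, which averaged 323 normalized counts. Npc2 was the steadiest of the 29 genes, with a highest library 1.24 times its lowest.

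Per gene length, in the authors' FPKM, the levels of the 29 genes spanned from Mylip, at 3.47 ± 0.62 in VPA and 2.84 ± 0.43 in VPA_OCA, to Fdps, at 256 ± 136 and 271 ± 158. Fdps, Ebp (234 ± 42.4 in VPA), Insig1 (214 ± 80.2), Sc5d (192 ± 37.9), Tm7sf2 (179 ± 28.7) and Idi1 (171 ± 54.6) formed the upper end in VPA, and neighbours in that order differed by less than their SD. Ggps1 (6.05 ± 0.90), Srebf2 (9.30 ± 2.15) and Mvk (14.7 ± 3.66) followed Mylip at the lower end.

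**Figure D3:**
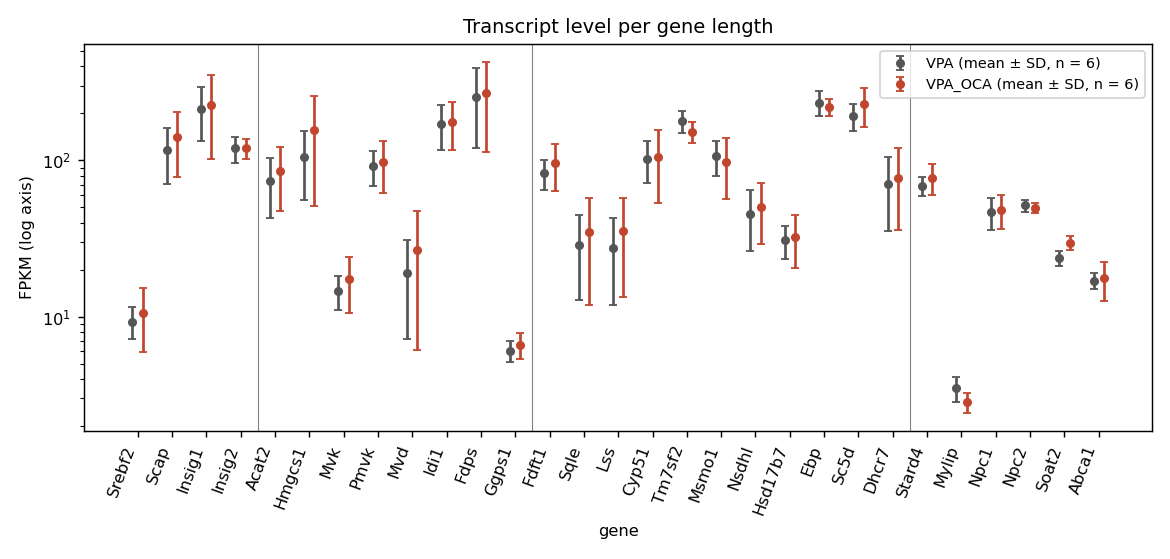
Points are mean FPKM per gene on a log axis, with bars of 1 SD (n = 6), VPA in grey and VPA_OCA in red, and genes in order of role. Levels run from about 3 FPKM for Mylip (2.84 in VPA_OCA) to 271 for Fdps in VPA_OCA, and the bars of the 2 groups overlap for each gene but Soat2.

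Within the sets of numbers the fold changes took opposite signs for most of the list. Of the 29 genes, 19 had a log2 fold change below 0 within numbers 1 to 3 and above 0 within 4 to 6, against 22.3% of all genes tested. The 19 included 15 of the 19 enzymes of the synthesis stages. The median over the 29 was -0.15 within 1 to 3 and 0.32 within 4 to 6, against 0.00 in each set over all genes. These members move together between libraries, so they are not separate observations of that pattern.

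By limma, 0 of 29 passed within 1 to 3 (0.637% of all genes), 0 within 4 to 6 (0.5%) and 0 for the difference between the sets (0.0105%). At an unadjusted p under 0.05 by limma the counts were 4 (12.4% of all genes), 11 (11.3%) and 10 (8.36%). The 4 genes within 1 to 3 were Cyp51, Tm7sf2, Msmo1 and Hsd17b7, each lower in VPA_OCA (6.02% of all genes). The 11 within 4 to 6 were Ebp and Mylip, lower in VPA_OCA (5.04% of all genes), and Srebf2, Hmgcs1, Mvk, Fdft1, Msmo1, Sc5d, Stard4, Soat2 and Abca1, higher (6.25%). With number set as a term over all 12 libraries, 0 passed (2.13% of all genes) and 3 had an unadjusted p under 0.05 by limma (14.5%): Soat2, Tm7sf2 and Mylip.

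Hmgcs1 had the largest difference between sets. Within 1 to 3 it measured 4879, 3378 and 4963 in VPA and 2774, 2520 and 4827 in VPA_OCA, a log2 fold change of -0.43 ± 0.23. Within 4 to 6 it measured 9288, 4037 and 3237 in VPA and 10080, 8520 and 14960 in VPA_OCA, a log2 fold change of 1.13 ± 0.36. The groups overlapped in both sets, and the difference of the fold changes, 1.56 ± 0.48, had a limma adjusted p of 0.43.

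Msmo1 measured 4267, 2672 and 4421 in VPA and 1838, 1736 and 2558 in VPA_OCA within 1 to 3, with no overlap. Within 4 to 6 it measured 4534, 2887 and 2636 and 4335, 4081 and 4964, with overlap. The fold changes were -0.88 ± 0.20 and 0.45 ± 0.18, and their difference of 1.32 ± 0.31 had a limma adjusted p of 0.27. Within 1 to 3 its limma adjusted p was 0.10, and 0.0168 with array weights, which let the fit give less weight to more variable libraries.

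Cyp51 measured 3899, 2153 and 3527 in VPA and 1571, 1917 and 2671 in VPA_OCA within 1 to 3. Within 4 to 6 it measured 4740, 2588 and 2613 and 4072, 3704 and 5955. The groups overlapped in both sets, and the fold changes differed by 1.12 ± 0.38, with a limma adjusted p of 0.48.

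Soat2 kept its direction in both sets. Within 1 to 3 it measured 964, 991 and 1152 in VPA and 1073, 1063 and 1260 in VPA_OCA, a log2 fold change of 0.13 ± 0.12. Within 4 to 6 it measured 1001, 824 and 930 and 1353, 1253 and 1298, with no overlap and a log2 fold change of 0.51 ± 0.09. The limma adjusted p was 0.71 within 1 to 3, 0.0601 within 4 to 6 and 0.0847 with the term for the sets. It was 0.0374 within 4 to 6 with array weights.

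Levels by themselves also differed between the sets of numbers. Abca1, Npc1 and Ebp lay higher in all 6 libraries numbered 4 to 6 than in the 6 numbered 1 to 3, and Ggps1 lower. Such separation upwards held for 5.65% of all genes tested and downwards for 4.97%. Because the division was seen in these data, no test is given. The mitochondrial share divided the libraries in the same way, and its part in these levels was not tested.

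**Figure D4:**
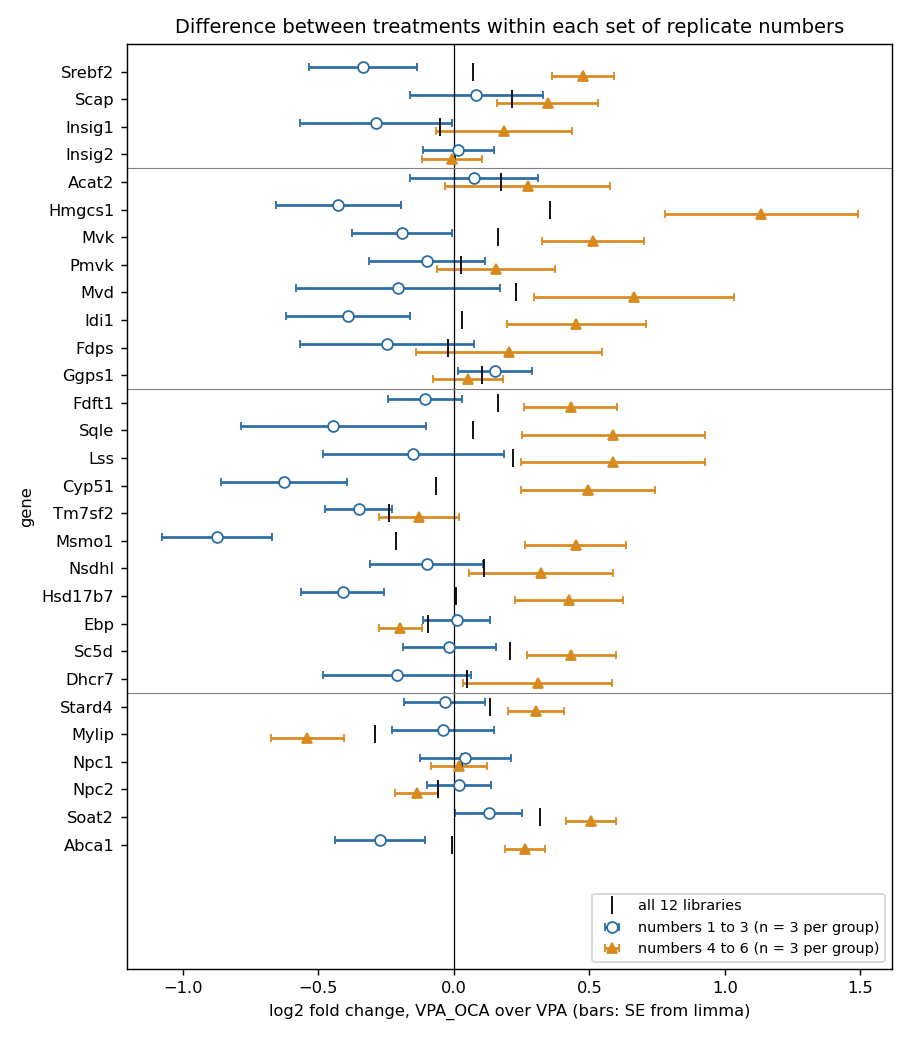
Log2 fold changes of VPA_OCA over VPA are plotted per gene within numbers 1 to 3 (open circles), within 4 to 6 (filled triangles) and over all 12 libraries (vertical ticks), with bars of 1 SE from limma. Most circles of the enzymes lie left of 0 and most triangles right of it, with Hmgcs1 at -0.43 and 1.13, while Soat2 lies right of 0 in both sets and Mylip left of 0 in both.

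The spread between livers was wide for synthesis genes. In 21 of the 29 genes the highest library was over 2 times the lowest, against 28% of the 9307 genes with a mean of at least 100 normalized counts. Over the 19 enzymes, the mean deviation from each gene's average (log2) was 0.67 in VPA 4 and 0.84 in VPA_OCA 6, the highest of the 12 livers, and -0.71 and -0.66 in VPA_OCA 1 and 2, the lowest. The other VPA livers lay between -0.43 and -0.01, and the other VPA_OCA livers at 0.08, 0.37 and 0.29.

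Some marker sums were also extreme in the 2 livers of highest enzyme level. VPA 4 and VPA_OCA 6 had the lowest summed level of 5 pericentral markers in their groups, 106168 and 75018 normalized counts, against highest sums of 198804 and 140926. Cyp2e1 made up most of these sums, with 74280 and 52010, the lowest of each group, while Cyp1a2, at 3852 and 4254, was not the lowest in either. VPA 4 and VPA_OCA 6 also had the highest macrophage sums over 7 markers, 6346 and 4597, with lowest sums of 2410 and 2519. Within VPA_OCA, however, Adgre1, Marco and Timd4 were highest in VPA_OCA 1, a liver of low enzyme level, at 272.9, 269.6 and 151.6. Clec4f, Cd68, Csf1r and Vsig4 were highest in VPA_OCA 6. Sums of 5 periportal markers were 44475.1 in VPA 4, near the VPA maximum of 44774.5, and 43049 in VPA_OCA 6, below the VPA_OCA maximum of 50819. None of the macrophage markers passed by limma. Of the pericentral markers 1 did, downwards (0.279% of all genes), and of the periportal markers 1, upwards (0.442%). In VPA 4 the skeletal muscle list summed to 437 normalized counts and in VPA 5 to 103, against a VPA minimum of 5.27 and at most 22.8 in VPA_OCA. The part of these in the enzyme levels was not tested.

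Coordination was described against Hmgcs1, after the mean of each treatment and number set was removed from log2 values, over 12 libraries. A residual r of at least 0.8 held for 17 of the other 28 genes, against 1.16% of the 19005 other genes tested and 1.55% of those with a mean of at least 100. These r values are a description, since each one rests on the same 12 livers and the same Hmgcs1 values. By role, 1 of 4 regulators, 6 of 7 other mevalonate genes and 10 of 11 squalene and sterol genes reached 0.8, and 0 of 6 transport genes did. Without VPA 4, an alternative added after seeing the data, 15 of the 28 reached 0.8, against 1.32% of the other genes tested, and the median residual r of the 18 other enzymes was 0.892 in place of 0.915.

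The closest were Fdft1, Nsdhl and Sc5d, each at 0.96, followed by Acat2, Sqle, Msmo1 and Hsd17b7 at 0.93. Insig1, itself a textbook SREBP2 target, was at 0.80. Of the SREBP machinery, Scap was at 0.74, Srebf2 at 0.56 and Insig2 at 0.07. Scap had higher residual r with some other enzymes, 0.95 with Dhcr7, 0.92 with Lss and 0.88 with Sqle. With others it was lower, 0.56 with Cyp51, 0.48 with Idi1, 0.45 with Tm7sf2 and -0.35 with Ggps1. Of the enzymes, Ebp at 0.38 and Ggps1 at -0.20 stood outside. In transport, Stard4 was at 0.76 and Soat2 at 0.62, Abca1, Npc1 and Npc2 were at 0.08, -0.09 and -0.01, and Mylip was at -0.59.

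**Figure D5:**
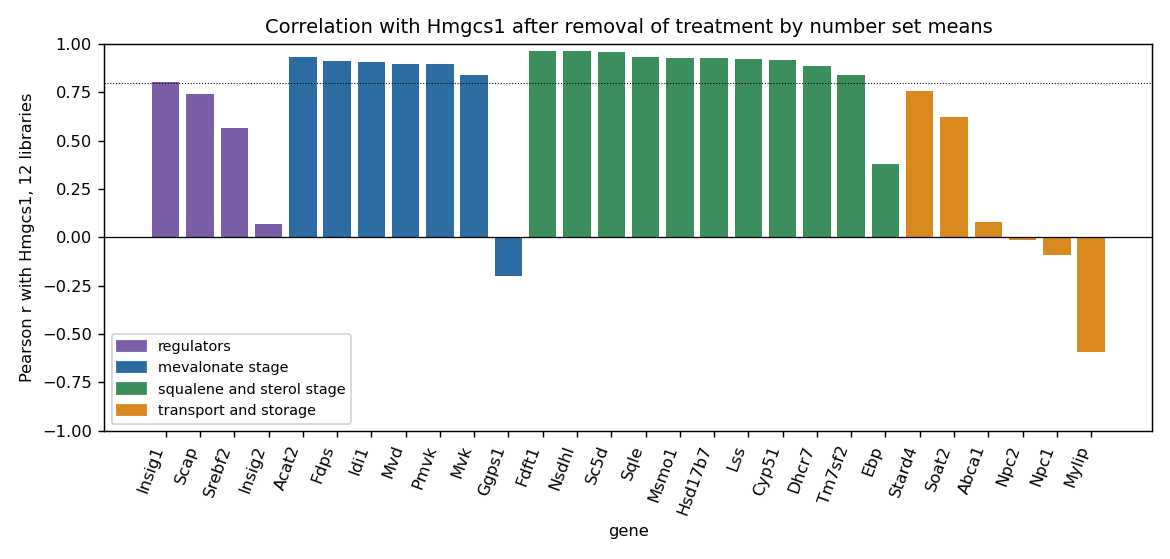
Bars are Pearson r of each gene with Hmgcs1 over 12 libraries after removal of the means of treatment by number set, coloured by role, with a dotted line at 0.8. Bars of the 2 synthesis stages stand at 0.84 or above except Ebp (0.38) and Ggps1 (-0.20), and Mylip is lowest at -0.59.

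The median residual r over all pairs was 0.65 among the 29 genes and 0.87 among the 19 enzymes. No such median over all genes tested is given here, so these 2 values describe the list alone. Among all genes tested, 3 of the 20 and 11 of the 50 with the highest residual r to Hmgcs1 belonged to the list. Of 10 other genes of sterol synthesis, its supply and electron donors, 2 reached 0.8 (1.16% of all genes tested). These were Acss2 and Acly, which make cytosolic acetyl-CoA, at 0.93 and 0.90. The median of the 10 was 0.55, and Por, Cyb5a, Acat1 and Pgrmc1 lay below 0, at -0.76, -0.68, -0.46 and -0.11.

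Within each set of numbers (n = 6, both treatments) the median Pearson r with Hmgcs1 over the 28 genes was 0.78 in 1 to 3 and 0.88 in 4 to 6. By exact permutation of the 720 pairings, 2-sided, 11 of the 28 had an unadjusted p under 0.05 by Pearson r in 1 to 3 (5.94% of all genes tested) and 17 in 4 to 6 (9.29%). By Spearman rho the counts were 3 (4.01%) and 15 (5.05%). Adjusted over 56 relations, 5 genes passed in 1 to 3 and 14 in 4 to 6 by Pearson r, and 0 in each by Spearman rho. The Hmgcs1 means of the treatments lay apart in both sets, with log2 fold changes of -0.43 in 1 to 3 and 1.13 in 4 to 6. Neither passed (limma adjusted p = 0.49 and 0.26). The pairings were permuted across both treatments. These r and their p-values therefore include differences between treatment means, which the residual r does not. Without the 2 livers farthest from the median of Hmgcs1, the median r was 0.55 and 0.65. These livers were of 1 treatment in each set, VPA_OCA 1 and 2 in 1 to 3 and VPA 5 and 6 in 4 to 6. Leaving them out therefore also left the treatments unequal in number.

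Sc5d, for example, had r = 0.85 (exact permutation p = 0.0486, adjusted 0.0972) and rho = 0.77 (exact p = 0.103, adjusted 0.174) in 1 to 3, and r = 0.99 (exact p = 0.00694, adjusted 0.0415) and rho = 0.83 (exact p = 0.0583, adjusted 0.131) in 4 to 6. Without the farthest 2 livers its r was 0.78 and 0.94. Mylip went the other way in 4 to 6, with r = -0.92 (exact permutation p = 0.0111, adjusted 0.0415) and rho = -0.94 (exact p = 0.0167, adjusted 0.104), and -0.72 without the 2 farthest livers. In 1 to 3 its r was -0.33 (exact permutation p = 0.501, adjusted 0.562). Srebf2 and Scap had r = 0.93 and 0.92 in 4 to 6 (exact permutation, adjusted p = 0.0491 for each), and 0.64 and 0.51 in 1 to 3 (adjusted 0.229 and 0.396). Without the farthest 2 livers these were 0.65 and 0.90, and -0.67 and 0.0049.

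Within the 6 VPA livers, a comparison added after seeing the data, the median Pearson r with Hmgcs1 was 0.80 over the 28 genes and 0.88 over the 18 other enzymes. Without the farthest 2 livers, VPA 4 and VPA 6, these medians were 0.47 and 0.78. By exact permutation, 10 of the 28 had an unadjusted p under 0.05 by Pearson r (3.49% of all genes tested) and 6 by Spearman rho (2.36%). Adjusted over these 28 relations 1 passed by Pearson r, Msmo1 (r = 0.83, exact permutation p = 0.00139, the smallest that 720 pairings can give, adjusted 0.0389), and 0 by Spearman rho. VPA 4 was the 1 VPA liver whose mean enzyme deviation lay above 0. In VPA_OCA the Hmgcs1 levels of numbers 1 to 3 and of 4 to 6 did not overlap, so no r is given within that group.

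Beyond the 29 genes, 55 others of the wider pathway were counted in 4 lists. Of 10 genes of SREBP processing and turnover, 10 of other sterol enzymes and electron donors, and 10 of the non-sterol isoprenoid branch, none passed by limma, and 1 in each list had an unadjusted p under 0.05 (9.55% of all genes). Of 25 genes of LXR signalling, esterification, efflux, intracellular carriers and oxysterol metabolism, 1 was called, downwards (0.279% of all genes), and 7 had an unadjusted p under 0.05 by limma. Over the 55 the median log2 fold change was 0.04. The authors' deposited table gave an adjusted p under 0.05 to Vldlr (1.67e-05), Cyp39a1 (0.00075) and Scarb1 (0.0092). It did so as well for Erg28 (0.0105), Cyp7b1 (0.0179) and Erlin1 (0.0389), against 5.57% of the genes it tested.

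The gene called by limma was Cyp39a1, which hydroxylates 24-hydroxycholesterol on the way to bile acids. It ran from 1143 to 1777 normalized counts in VPA (median 1232) and from 688.5 to 976 in VPA_OCA (median 925), with no overlap. It fell by 0.56 ± 0.12 on the log2 scale, with a limma adjusted p of 0.0418. Cyp39a1 stood at -0.57 within numbers 1 to 3 and -0.56 within 4 to 6. The call was lost when any 1 library other than VPA 1 or VPA 5 was left out.

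With the term for the number sets, 4 of the 55 passed by limma (2.13% of all genes). Vldlr, a lipoprotein receptor, measured 462 ± 163 and 211 ± 83.9 (limma adjusted p = 0.0605 without the term and 0.0035 with it). Scarb1, the receptor that takes up cholesterol from high-density lipoprotein, measured 3255 ± 548 and 4483 ± 581 (0.115 and 0.0311). Erg28, a scaffold of the sterol demethylation complex, measured 1570 ± 198 and 2060 ± 237 (0.127 and 0.0249). Cyp39a1 was the fourth (0.0132). With the replicate block Vldlr and Cyp39a1 passed by limma (1.1% of all genes), and Scarb1 and Erg28 did not (limma adjusted p = 0.0925 and 0.0587). Scarb1 did not overlap between groups, with a highest VPA value of 3887 below a lowest VPA_OCA value of 3985.

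Other genes nearest the threshold in their lists did not pass in either fit. Erlin1, which takes part in the turnover of sterol-sensing proteins, measured 964 ± 87.7 and 1196 ± 135. The electron donor Por measured 11590 ± 1806 and 10371 ± 2258. Dhdds, which makes dolichol chains, measured 403 ± 92.4 and 452 ± 73.2, and the prenyltransferase subunit Rabggtb 1125 ± 193 and 925 ± 76.7.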

How the data were processed

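RNA of 12 livers (6 VPA, 6 VPA_OCA) was extracted with Trizol and sequenced as TruSeq libraries, per the labels' protocols. The submitters' processing notes name edgeR and the build GRCm38.p5. For the aligner, the counter and strand use: not given in the sources used here. Per the file headers, the table deposited by the authors holds a normalized count per gene and library (a signal, not whole reads), so count models were not applied. The authors' FPKM, p-values and adjusted p-values come from the same table, as does a GC fraction that was not used, per the file headers. Numbers written with both a comma and an exponent had been shifted and were scaled down 1000 times. Positions are those of the authors' table, and the number of unused per-sample columns was 0.

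The filter required 6 or more libraries at a normalized count of 1 or more, which kept 19006 genes, and limma 3.58.1 (R 4.3.3) was run on log2(value + 1) (intensity trend, 2-sided, Benjamini-Hochberg over all genes, threshold 0.05). The series' design text gives 6 mice per treatment, so each library was taken as 1 mouse. The members and lists were chosen with earlier results of these data known. Libraries of the same number deviated together from their group means (r from 0.150 to 0.478 over the 6 numbers, all above the 0.1 required). For 4 of the 6 numbers a library of another number correlated more (0.325 to 0.639), each from the same set, 1 to 3 or 4 to 6. Deviations from group means still hold the difference between these sets, so these r cannot tell it from a pairing by number. By that rule a further fit with a replicate block treated the numbers as pairing the samples, though the labels name no shared litter or day. Limma values not said to use the block come from fits without it. With a replicate block 210 of all genes passed in place of 137, and 0 of 29 members. Values are given in full for the 2 genes of smallest p in each role, the 3 of largest difference between number sets and the 3 of widest spread. Of the other lists, genes called with or without the set term and the 2 of smallest p in each are named, except 1 that is not reported here. Promoters are from RefSeq (GRCm38.p6). The fits were tested on simulated data. Alternatives were other filters, pseudocounts, scalings, FPKM, limma without trend or with array weights, the thresholds 0.1 and 0.01, a replicate block and each library left out, and, chosen after seeing the data, coordination without VPA 4 and within VPA. Figures were drawn with matplotlib 3.10.9.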

Additional observations from a re-analysis of the deposited data

Results flagged for a closer look

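In the group of VPA livers, VPA 4 stood far above the other 5 in 12 genes of the synthesis route, by the gap to the nearest liver as a share of the group's range. It measured 4558 normalized counts for Acat2 (nearest 2371), 9288 for Hmgcs1 (4963), 589.4 for Mvk (408.4) and 2889 for Pmvk (1883). It measured 1590 for Mvd (778.3), 12920 for Fdps (5842), 5054 for Fdft1 (3531) and 3507 for Sqle (1603). It measured 3377 for Lss (1472), 2752 for Nsdhl (1476), 1758 for Hsd17b7 (1213) and 3722 for Dhcr7 (1943). These genes move together, so the 12 values are 1 liver and not separate observations. Without VPA 4, none of the 29 genes was called by limma, and Insig1, Fdps, Cyp51 and Abca1 changed sign.

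In VPA_OCA 1, Cyp39a1 measured 688.5 normalized counts against 870.7 in the nearest liver of its group, and the library held an estimated 37766890 reads against 21130528 in the next. Of 80 groups of values examined, 14 were singled out in this way, and chance singles out about 1 in 20.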

How the results depend on the processing

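Under each of 24 alternatives, 0 of the 29 members were called over all libraries, and 621 of 696 member values kept their sign; the other 75, from 18 members, changed sign, none of them with a call. With a replicate block, 210 of all genes and 2 of the 55 other pathway genes passed (Vldlr and Cyp39a1). With the set term these counts were 404 and 4, at the threshold 0.1 they were 223 and 2, and at 0.01 they were 62 and 0. Of the 55, 0 passed with no filter or without trend, 2 with array weights, and 0 to 2 with 1 library left out. Soat2 was called within 4 to 6 with array weights (1 member, limma adjusted p = 0.0374), and at the threshold 0.1 within 4 to 6 and with the set term (1 member each). With the set term 0 to 1 members passed with 1 library left out, the 1 being Soat2 without VPA 3 or without VPA_OCA 2 (limma adjusted p = 0.0462 and 0.0447). Msmo1 was called within 1 to 3 with array weights (1 member, limma adjusted p = 0.0168).

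Changes of sign were as follows, as log2 fold changes. With median-ratio scaling Insig2 was -0.0033 and Hsd17b7 -0.00077, and with upper-quartile scaling -0.0070 and -0.0045. With FPKM Abca1 was 0.0038. With array weights Insig1 was 0.14, Fdps 0.13, Cyp51 0.059 and Abca1 0.085. Without VPA 4 and VPA 5, which held muscle transcripts, Insig1 was 0.17, Fdps 0.25, Ggps1 -0.017, Cyp51 0.014, Ebp 0.017 and Abca1 0.049. With 1 library left out, Srebf2 ranged from -0.062 to 0.26, Insig1 from -0.27 to 0.20, Insig2 from -0.044 to 0.091, Acat2 from -0.0081 to 0.36, Pmvk from -0.12 to 0.17 and Mvd from -0.095 to 0.58. Idi1 ranged from -0.11 to 0.18, Fdps from -0.26 to 0.22, Sqle from -0.20 to 0.35, Lss from -0.036 to 0.49, Cyp51 from -0.26 to 0.12 and Nsdhl from -0.054 to 0.30. Hsd17b7 ranged from -0.12 to 0.16, Dhcr7 from -0.16 to 0.28, Npc1 from -0.077 to 0.16 and Abca1 from -0.090 to 0.14. The cause was not tested. With 6 livers per group and this spread, a 1.5-fold difference in a widely varying enzyme lies inside its interval.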
